A study of Rattus norvegicus with 2 samples.

Results

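Cycling macrophages were chosen by measured counts, as cells in which the summed count of Top2a, Cdk1, Cenpf and Ube2c reached 5 unique molecular identifiers (UMIs, counted mRNA molecules) and Lyz2 reached 20000 counts per 1000000 UMIs of the cell (CPM). Top2a untangles replicated DNA, Cdk1 is the kinase that starts mitosis, Cenpf binds the kinetochore and Ube2c feeds the ubiquitin ligase that ends mitosis. Lyz2 encodes lysozyme, which macrophages, monocytes and neutrophil precursors carry at high levels. The rule found 414 of 13762 cells kept, 296 in the CIA library and 118 in the control library. They were compared with the Lyz2-high cells in which the same 4-gene sum was 0, called non-cycling here (2195 in the CIA library and 712 in the control library). Between them lay the Lyz2-high cells with a sum of 1 to 4, which entered neither side (636 in the CIA library and 297 in the control library).

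Single-cell RNA-seq had been run on cartilage of Lewis rats, an inbred strain. In the CIA group arthritis was induced with collagen of type II, given together with complete Freund's adjuvant, and tissue was taken on day 14. The control group had no treatment according to its label and is called sham in the series' design. Each group is 1 library, the number of animals behind it is not given in the sources used here, and cells of a library are not replicates. Differences are therefore given as measured sizes with no test, and every interval below is an exact 95% interval that covers counting error only.

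Macrophages in a joint come from at least a pair of sources, resident cells that can renew themselves by division and blood monocytes that arrive in inflammation and mature in place. Mature tissue macrophages make complement C1q, apolipoprotein E and, when they present antigen, MHC class II molecules. Genes needed for division are switched on in a fixed order, DNA synthesis genes in S phase and then the spindle, kinetochore and cyclin B genes in G2 and M phase. The comparison asked which kind of Lyz2-high cell was dividing.

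The promoters of the rule genes are shown because they are the sequences that such timed control reads. They come from RefSeq (build GRCr8, while the submitters' processing notes name mRatBN7.2 for the counts) and run from 250 bases before to 50 bases after the gene's start, 5′ to 3′ on the gene's strand. Of the 4 rule genes, Top2a (chr10:84473044-84473343, minus strand), Cdk1 (chr20:19265043-19265342, plus strand) and Cenpf (chr13:103760837-103761136, minus strand) had an entry, and Ube2c is named only. Capitals mark matches on either strand to CCAAT (the box that NF-Y binds), TTTGAA (the core of the cell cycle genes homology region) and TTTNNCGC (a form of the E2F site), and the matches did not overlap one another.
Top2a: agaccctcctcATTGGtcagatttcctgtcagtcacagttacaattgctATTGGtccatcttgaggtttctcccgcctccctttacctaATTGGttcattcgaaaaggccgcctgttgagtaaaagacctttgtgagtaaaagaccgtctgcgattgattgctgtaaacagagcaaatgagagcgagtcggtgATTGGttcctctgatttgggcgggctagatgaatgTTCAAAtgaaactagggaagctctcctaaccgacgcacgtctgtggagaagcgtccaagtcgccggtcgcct
Cdk1: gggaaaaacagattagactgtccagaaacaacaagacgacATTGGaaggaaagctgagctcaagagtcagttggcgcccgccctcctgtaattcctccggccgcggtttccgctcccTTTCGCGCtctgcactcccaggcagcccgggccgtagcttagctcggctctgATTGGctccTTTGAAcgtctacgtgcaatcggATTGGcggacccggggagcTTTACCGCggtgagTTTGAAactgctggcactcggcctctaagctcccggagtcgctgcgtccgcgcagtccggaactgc
Cenpf: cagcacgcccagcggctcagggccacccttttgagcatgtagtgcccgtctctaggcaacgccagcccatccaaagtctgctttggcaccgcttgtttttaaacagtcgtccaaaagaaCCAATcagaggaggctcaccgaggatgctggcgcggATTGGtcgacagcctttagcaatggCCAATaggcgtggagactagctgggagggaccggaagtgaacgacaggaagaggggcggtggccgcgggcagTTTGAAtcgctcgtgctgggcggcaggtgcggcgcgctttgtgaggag
Top2a held 4 CCAAT boxes and 1 TTTGAA, Cenpf 3 and 1, and Cdk1 3 CCAAT boxes, 2 TTTGAA and 2 TTTNNCGC. Among all 33469 promoters of the table, 37.5% held CCAAT, 18.3% held TTTGAA, 4.92% held TTTNNCGC and 7.41% held both CCAAT and TTTGAA. In the G2 and M phase list, 26 of 32 promoters held CCAAT, 25 of 32 TTTGAA and 21 of 32 both, while 3 of 32 held TTTNNCGC. In the S phase list 14 of 26 held TTTNNCGC, 5 of 26 TTTGAA and 13 of 26 CCAAT. Of the other lists, CCAAT stood in 8 of 9 promoters of the MHC class II list and 7 of 10 of the core macrophage list, and TTTGAA in 0 of 9 and 2 of 10. A match describes these letters in this window and is not evidence of binding.

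The files held 8622 CIA barcodes with a median of 10541 UMIs and 5456 control barcodes with a median of 11873 UMIs. The libraries shared 52 barcodes, of which 1 belonged to a cycling cell of the CIA library. Cycling cells were deeper than non-cycling cells, with a median of 15664 against 9019 UMIs in the CIA library and 17572 against 12098.5 UMIs in the control library. A doublet caller removed 16 cycling cells of the CIA library and 0 of the control library. The lower depth of non-cycling cells bears on every share below, so shares are also given after thinning each cell to 5000 UMIs.

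The macrophage label was checked on Csf1r, the receptor for the macrophage growth factor CSF1. It was detected in 94.9% of cycling cells of the CIA library and 89.8% of those of the control library. In cells rich in the fibroblast collagen Col1a1 and low in Lyz2, where UMIs of Csf1r stand for free RNA, 13.6% and 11.9% had a UMI, at median depths of 11169 UMIs in the CIA library and 13391 UMIs in the control library. Summed over cycling cells, Csf1r stood at 342 CPM in the CIA library and 308 CPM in the control library, against 430 and 364 CPM in non-cycling cells. The lysosomal marker Cd68 stood at 1127 and 1007 CPM in cycling cells, against 1399 and 1260 CPM in non-cycling cells. Spi1, the transcription factor PU.1, had ratios of cycling to non-cycling cells of 0.896 and 1.01, and Tyrobp, a signalling adaptor of myeloid receptors, of 0.847 and 0.875. Over all cycling cells together these markers thus went with the label, while Adgre1, the F4/80 antigen, was low, as described further on. For 14 core macrophage genes the median log2 ratio of cycling to non-cycling cells was -0.32 in the CIA library and -0.47 in control cells. Over all genes it was 0.15 and 0.21.

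RNA of other cell types was compared as the summed CPM of each list. Fibroblast genes summed to 3291 CPM in cycling and 2930 CPM in non-cycling cells of the CIA library, and to 3428 and 3527 CPM in the control library. Genes of the joint lining summed to 1579 and 1001 CPM in the CIA library and to 654 and 554 CPM in the control library. Endothelial genes stood at 84.1 and 87.3 CPM in the CIA library and at 86.7 and 83.4 CPM in the control library. B cell genes stood at 0.618 CPM in cycling cells of the CIA library and 7.06 CPM in those of the control library, and mast cell genes at 2.27 and 1.57 CPM. Cd3e, Cd3d, Cd3g and Klrd1 of the T and NK cell list were at 0 in cycling cells of the control library, and Cpa3 and Ms4a2 of the mast cell list were at 0 in cycling cells of both libraries. T and NK cell genes summed to 44.3 CPM in cycling and 50.2 CPM in non-cycling cells of the CIA library, and to 75.3 and 45.1 CPM in the control library. Dendritic cell genes summed to 1598 and 2628 CPM in the CIA library and to 1774 and 2542 CPM in the control library. Of these sums Cst3, which other cells also carry, held 1523 CPM in cycling cells of the CIA library and 1737 CPM in those of the control library, while Xcr1 and Siglech were at 0 in cycling cells of both. In the Fcnb class of the control library the dendritic sum was 3170 CPM in cycling and 1387 CPM in non-cycling cells.

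The 4 rule genes had chosen the cells, so their levels only describe them. The cycle sum had a median of 19 UMIs and a highest value of 125 in the CIA library, and a median of 18.5 and a highest value of 152 in the control library. Ube2c was counted at 655 CPM in the cycling cells of the CIA library and 581 CPM in those of the control library, Top2a at 390 and 283 CPM, Cdk1 at 367 and 291 CPM, and Cenpf at 236 and 149 CPM. Just inside the threshold, 25 CIA and 2 control cells had a sum of exactly 5, and just outside it 28 CIA and 9 control cells had a sum of exactly 4. Among cells whose cycle sum passed, 15 CIA and 7 control cells had Lyz2 between 20000 and 25000 CPM, and 16 CIA and 8 control cells fell between 15000 and 20000 CPM. Membership thus depends in part on the limits, and shares at other limits are given at the end.

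Cycling cells made up 9.47% of Lyz2-high cells in the CIA library (interval 8.46 to 10.5) and 10.5% in the control library (8.74 to 12.4), and these intervals overlapped. After thinning the shares were 6.78% and 6.30%. Lyz2-high cells as a whole made up 37.2% of kept cells in the CIA library and 21.1% in the control library. Of all kept cells with a cycle sum of at least 5, 32.0% were Lyz2-high in the CIA library (296 of 926) and 20.4% in the control library (118 of 579). The larger number of cycling Lyz2-high cells in the CIA library therefore went with more Lyz2-high cells, at a cycling share whose interval overlapped that of the control library. The libraries do not tell how many cells the tissue held.

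Lyz2-high cells were then split by gates on genes outside the cycle. A granule class held at least 1000 CPM of Mpo, Elane, Prtn3 and Ctsg, proteases and peroxidase of early granulocyte precursors. Of the rest, a C1q class held at least 1000 CPM of C1qa, C1qb and C1qc. Of what remained, an Fcnb class held at least 500 CPM of Fcnb. Fcnb encodes a ficolin and stood in both the inflammatory monocyte list and the neutrophil list, so this gate does not single out monocytes. Cells past none of these gates, called ungated here, kept Lyz2 and Csf1r but had little C1q or Fcnb.

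Division was rarest in the C1q class. In the CIA library 3.02% of C1q cells were cycling (24 of 795, interval 1.94 to 4.46), against 12.02% of ungated cells (249 of 2071, 10.6 to 13.5) and 8.53% of Fcnb cells (22 of 258, 5.42 to 12.6). In the control library 4.91% of C1q cells were cycling (14 of 285, 2.71 to 8.10), against 11.1% of ungated cells (70 of 628, 8.79 to 13.9) and 14.9% of Fcnb cells (31 of 208, 10.4 to 20.5). The C1q interval did not overlap that of the ungated class in either library. After thinning the C1q share was 1.89% in the CIA library and 3.16% in the control library, the ungated share 8.51% and 5.57%, and the Fcnb share 7.24% and 12.02%. After thinning the C1q and ungated intervals overlapped in the control library (1.45 to 5.91 and 3.91 to 7.67) and not in the CIA library, while the C1q and Fcnb intervals overlapped in neither.

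**Figure D1:**
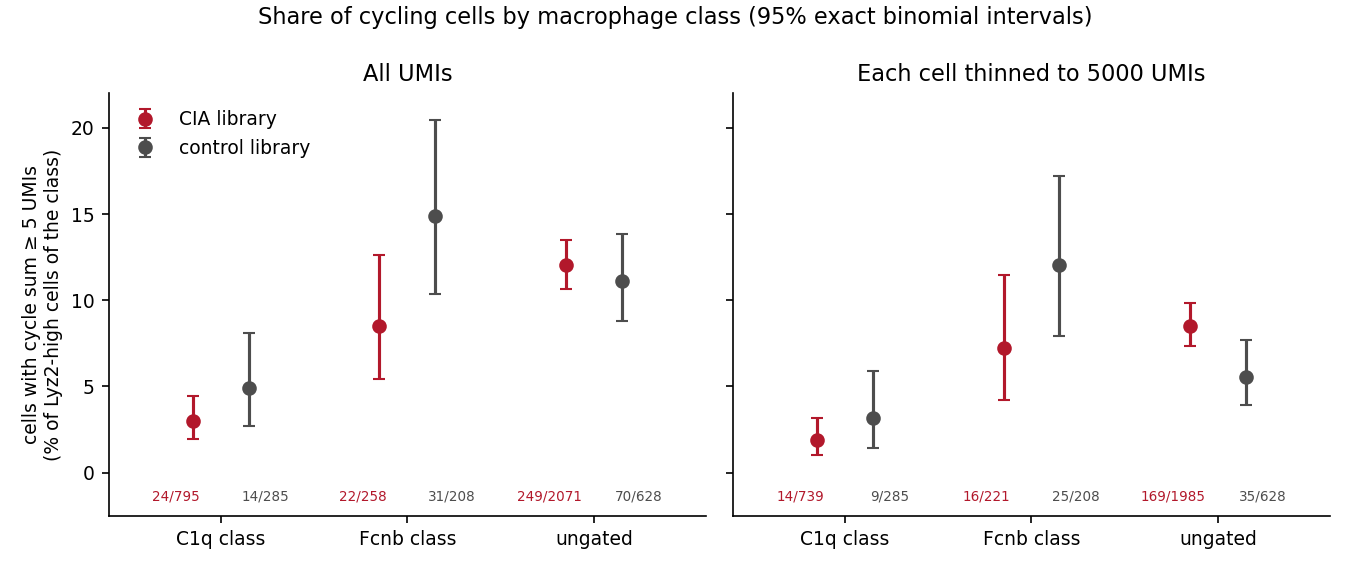
Share of Lyz2-high cells that were cycling (percent) in the C1q, Fcnb and ungated classes of the CIA and control libraries, on all UMIs (left) and after thinning (right), with exact 95% intervals that cover counting error only and the number of cycling cells over all cells of the class. The C1q class has the lowest share in both libraries, 3.02% in CIA and 4.91% in control, and the Fcnb class has the highest share in the control library, 14.9%.

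Read the other way, C1q cells formed 8.11% of cycling and 28.2% of non-cycling cells in the CIA library, and 11.9% of cycling and 29.4% of non-cycling cells in the control library. Ungated cells formed 84.1% of cycling cells in the CIA library, against 63.1% of non-cycling cells. Among control cells they formed 59.3% of cycling cells, against 53.7% of non-cycling cells, and those intervals overlapped. The Fcnb class held 7.43% of cycling and 8.61% of non-cycling cells in the CIA library, and 26.3% of cycling and 16.7% of non-cycling cells in the control library. Among cycling cells the Fcnb interval of the CIA library (4.72 to 11.04) lay below that of the control library (18.6 to 35.2). Both cover the counting error of 1 library each, so this is no test of CIA against control. The granule class held 1 of 296 cycling cells in the CIA library and 3 of 118 in the control library.

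Each cell was also assigned to the class whose average profile over other genes it most resembled (7930 genes in the CIA library and 8567 in the control library). Genes of the cycle and growth lists and the gate genes were left out. Division genes outside those lists were not left out by name. Cycling cells came nearest to the ungated class in 87.8% of cases in the CIA library and 66.9% in the control library. They came nearest to the C1q class in 6.08% (18 cells) and 3.39% (4 cells), against 38.1% and 37.6% of non-cycling cells. They came nearest to the Fcnb class in 6.08% and 29.7%, against 11.3% and 18.8% of non-cycling cells. Of non-cycling cells 50.5% in the CIA library and 43.5% in the control library came nearest to the ungated class. Non-cycling cells left out of the averages recovered the C1q gate in 74.2% of cases in the CIA library and 74.6% in the control library, the Fcnb gate in 88.4% and 94.96%, and the ungated class in 68.5% and 66.2%. Of the cycling cells past the C1q gate, 8 of 24 in the CIA library and 3 of 14 in the control library came nearest to the C1q class.

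The same order appeared along continuous markers of maturation. MHC class II was taken as the summed CPM of 5 genes, Cd74, the chaperone of class II, and the chains RT1-Da, RT1-Db1, RT1-Ba and RT1-Bb, and Lyz2-high cells were divided into quartile groups of that sum. From the lowest to the highest quartile group, the cycling share was 17.6%, 12.7%, 6.91% and 0.639% in the CIA library, where the highest quartile group held 5 cycling cells of 782. For the control library it was 20.9%, 12.5%, 6.03% and 2.48%. After thinning the shares ran 14.0%, 8.10%, 4.18% and 1.08% in the CIA library and 14.5%, 6.03%, 3.58% and 2.11% in the control library. Median depth in these quartile groups was 11026, 11244, 9850 and 8042 UMIs in the CIA library and 10961, 13606, 13915 and 12488 UMIs in the control library. The part of depth in the shares on all UMIs was not tested beyond thinning.

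Quartile groups of Apoe, the lipid carrier of tissue macrophages, gave 17.4%, 11.9%, 6.65% and 1.92% in the CIA library. Control cells gave 16.3%, 18.5%, 6.03% and 1.06%, with the lower pair of quartile groups overlapping. Within the ungated class alone, where the gate caps C1q below 1000 CPM, class II quartile groups gave 18.9%, 16.1%, 10.8% and 2.32% in the CIA library and 21.0%, 13.4%, 7.01% and 3.18% in the control library. In each of these series the cycling share of the highest quartile group had an interval below that of the lowest quartile group.

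**Figure D2:**
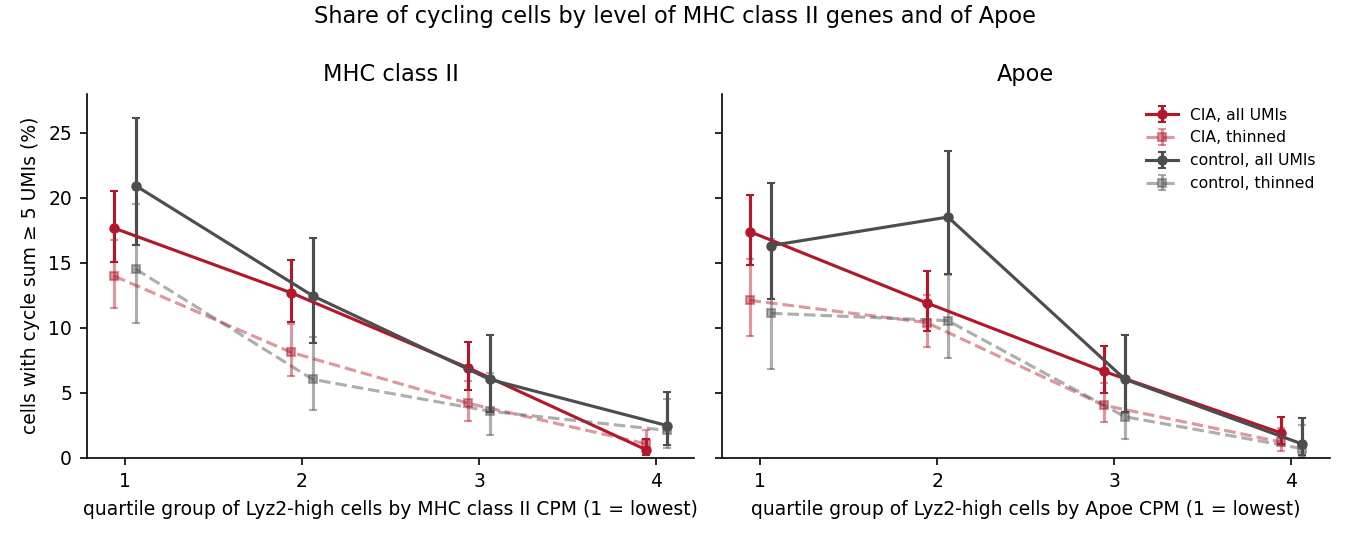
Cycling share of Lyz2-high cells (percent) in quartile groups of MHC class II and of Apoe level, from the lowest quartile group to the highest, for the CIA and control libraries, on all UMIs (solid) and after thinning (dashed), with exact 95% intervals for counting error. On all UMIs, in the highest class II quartile group the share is 0.639% in the CIA library and 2.48% in the control library, against 17.6% and 20.9% in the lowest quartile group.

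Per cell, the class II sum had a median of 2016 CPM in cycling and 17594 CPM in non-cycling cells of the CIA library, and of 797 and 16305 CPM in the control library. Cd74 alone had medians of 1088 against 8080 CPM in the CIA library and of 392 against 8287 CPM in the control library. In Col1a1-high, Lyz2-low cells its median was 138 CPM in the CIA library and 124 CPM in the control library, so cycling cells stood above this background. Apoe had medians of 762 against 8427 CPM in the CIA library and of 548 against 7781 CPM in the control library. Its medians in Col1a1-high, Lyz2-low cells were 640 and 551 CPM, so the typical cycling cell held no more Apoe RNA than that background in the control library and little more in the CIA library. Cycling cells were not uniform: the upper quartile of the class II sum reached 10456 CPM in the CIA library.

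**Figure D3:**
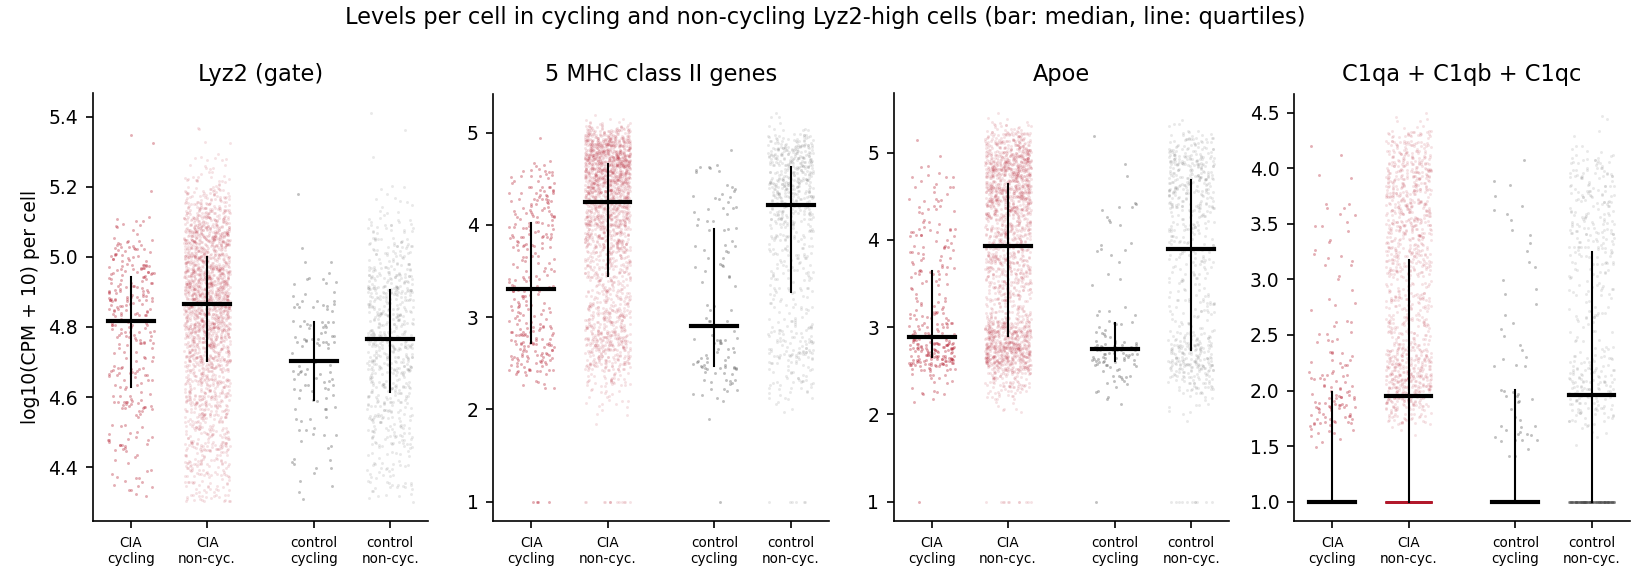
Level per cell (log10 of CPM + 10) of Lyz2, of the 5 class II genes, of Apoe and of summed C1q in cycling and non-cycling Lyz2-high cells of the CIA and control libraries, each dot a cell, bars the medians and lines the quartiles. The class II median is 2016 CPM in cycling and 17594 CPM in non-cycling cells of the CIA library, and the highest cycling cell of that library stood at 88060 CPM, against 153764 CPM for the highest non-cycling cell.

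For genes one by one, UMIs were summed over cycling and over non-cycling cells of a library and set as a ratio of CPM. A gene was measured when the sums held at least 100 UMIs together, and it is called higher or lower when the ratio passed 2-fold and its counting interval lay wholly beyond 1.5-fold. Of 6880 genes measured in both libraries, 376 (5.47%) were higher and 111 (1.61%) were lower in both. In the CIA library by itself 7.44% of 8687 measured genes were higher and 2.26% lower, and in the control library 8.61% of 6914 were higher and 2.91% lower. Scaled by trimmed mean of M values in place of total counts, 291 were higher and 197 lower. The median log2 ratio of all genes was 0.15 in the CIA library and 0.21 in the control library, and each value below is to be read against it. Since the rule splits cells by cycle genes of the same counts, these ratios describe the cells and support nothing.

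Genes of the cell cycle made up the upper end. In the S phase list 20 of 22 members measured in both libraries were higher in both (30 listed), and in the G2 and M phase list 29 of 30 (36 listed). Mki67, the proliferation antigen, stood at 507 CPM in cycling and 10.6 CPM in non-cycling cells of the CIA library, and at 323 and 10.4 CPM in the control library. Ccnb1, cyclin B1, stood at 173 and 2.47 CPM in the CIA library and at 133 and 3.79 CPM in the control library. Pcna, the clamp of the replication fork, stood at 526 and 133 CPM in the CIA library and at 509 and 249 CPM in the control library, where the ratio of 2.04 dropped below 2-fold under other scalings. Mcm3, a part of the replicative helicase, was 6.37 and 6.47 times as high, and Rrm2, which makes deoxynucleotides, 65.7 and 45.4 times as high.

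The 12 genes with the largest ratios in both libraries, outside the cycle and growth lists, were Kif2c, Spc25, Pclaf, Pbk, Kif20a, Ska1, Sgo2, Ckap2l, Ncapg, Kifc1, Spc24 and Kif4a. Most are motors, kinetochore parts or chromosome condensers. Kif2c, a kinesin that takes microtubules apart, had ratios of 106 in the CIA library and 81.9 in the control library. Spc24, a subunit of the kinetochore's microtubule clamp, stood at 462 and 10.9 CPM in the CIA library and at 429 and 9.27 CPM in the control library.

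Some regulators of entry into the cycle passed the size rule in both libraries. In the list of G1 cyclins, kinases and inhibitors, 3 of 12 were higher in both libraries (17 listed): Cdk2, Cdk4 and the inhibitor Cdkn2c. Over all genes measured in both libraries, 5.47% were higher in both. Cdkn2c, which blocks Cdk4 and Cdk6, stood at 88.8 CPM in cycling and 11.6 CPM in non-cycling cells of the CIA library, and at 81.6 and 13.3 CPM in the control library. Cdk4 had ratios of 2.05 and 2.14. Ccnd3, a D-type cyclin, had ratios of 1.92 and 2.43 and so passed the size rule in the control library alone. Cdkn1a, the p53 target p21, had ratios of 1.10 and 1.07. Of the nucleotide synthesis list 6 of 15 were higher in both, among them the folate enzyme Mthfd2 (ratios 5.07 and 4.17). Of the general growth list 6 of 12 were higher in both, among them the tubulin regulator Stmn1 (25.7 and 16.9). Of 13 glycolysis genes and 10 interferon response genes, 0 passed in both libraries. Among growth factor receptors and ligands 1 of 14 was lower in both, Vegfa, the vascular growth factor (0.320 and 0.384), and Csf1r was not called. Over all genes measured in both libraries, 1.61% were lower in both.

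The phase of the cycling cells was read from the sums of the S and of the G2 and M lists after thinning. The median S sum was 11 UMIs in the CIA library (292 cells, 4 too shallow) and 9 UMIs in the control library (118 cells), and the median G2 and M sum was 31 and 26.5 UMIs. The S sum exceeded the G2 and M sum in 60 of 292 cells (20.5%) of the CIA library and in 18 of 118 (15.3%) of the control library. The rule genes belong mostly to G2 and M, so the rule favours those phases. Of Lyz2-high cells with a cycle sum of 1 to 4, 28.2% in the CIA library and 24.6% in the control library had an S sum of at least 5, against 8.75% and 15.9% of cells with a sum of 0. Cells with a sum of 0 also had a G2 and M sum of at least 5 in 10.4% of cases in the CIA library and 32.9% in the control library. The comparison cells were thus not free of RNA of these lists, above all in the control library. An S sum of at least 5 was seen in 12.04% of C1q cells and 23.2% of ungated cells of the CIA library, and in 15.4% and 24.5% of those of the control library. Fcnb cells of the CIA library had it in 15.4% of cases (10.9 to 20.8), an interval that overlapped that of C1q cells (9.78 to 14.6). Fcnb cells of the control library had it in 35.1% (28.6 to 42.0), the highest share of these classes there. These class shares include the cycling cells themselves, of which 81.2% in the CIA library and 76.3% in the control library had such an S sum. The order of the classes by S phase genes is therefore a description and not independent of the rule.

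At the lower end stood genes of mature macrophages. Of the MHC class II list 5 of 7 measured members were lower in both libraries (11 listed), Cd74, RT1-Da, RT1-Db1, RT1-Ba and RT1-Bb. Cd74 stood at 3251 CPM in cycling and 10585 CPM in non-cycling cells of the CIA library, a ratio of 0.307 (0.302 to 0.312). In the control library it stood at 3312 and 10934 CPM, a ratio of 0.303 (0.296 to 0.310). The class II alpha chain RT1-Da stood at 1086 and 4039 CPM in the CIA library and at 984 and 3836 CPM in the control library. Ctss, the protease that trims Cd74, had ratios of 0.502 and 0.423, and Ifi30, a lysosomal thiol reductase of antigen processing, was not called (0.774 and 0.813). Ciita, the activator of class II transcription, had a ratio of 0.362 in the CIA library and fell under the count minimum in the control library.

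Of the C1q tissue macrophage list 6 of 13 were lower in both libraries (20 listed): C1qa, C1qb, C1qc, Selenop, Ms4a7 and Gas6. C1qa stood at 125 CPM in cycling and 518 CPM in non-cycling cells of the CIA library, and at 173 and 519 CPM in the control library. Cd163, the haemoglobin scavenger receptor, had 0 UMIs in cycling cells of both libraries, against 4.67 and 2.85 CPM in non-cycling cells. Mrc1, the mannose receptor, and Trem2, a lipid-sensing receptor, were not called (Mrc1 0.714 and 0.711, Trem2 0.688 and 0.609).

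Of the core macrophage list 3 of 14 were lower in both, among them Adgre1 and Aif1. Adgre1 stood at 2.89 CPM in cycling and 30.2 CPM in non-cycling cells of the CIA library, and at 5.10 and 37.4 CPM in the control library. After thinning it was detected in 1.37% of cycling and 10.6% of non-cycling cells of the CIA library, with 0.462% in Col1a1-high, Lyz2-low cells. Control cells had it in 2.54% and 14.3%, with 0.191% in those cells. Aif1, a calcium-binding protein of macrophages, had ratios of 0.418 and 0.369.

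Of the lipid handling list 5 of 17 were lower in both: Apoe, Apoc1, Plin2, Abca1 and Npc2. Apoe stood at 6529 CPM in cycling and 27938 CPM in non-cycling cells of the CIA library, and at 4960 and 32586 CPM in the control library. Apoc1, its neighbour apolipoprotein, had ratios of 0.139 and 0.0682, and Abca1, the cholesterol exporter, of 0.395 and 0.308. Spp1, osteopontin, had summed ratios of 0.831 in the CIA library and 1.44 in the control library. Its median per cell was nevertheless higher in cycling cells, at 3197 against 1607 CPM in the CIA library and 994 against 301 CPM in the control library. Fabp5, a fatty acid carrier, was not called (1.15 and 1.11). Of 17 lysosomal genes 2 were lower in both, among them the protease Lgmn, and no cathepsin was lower in both (Ctsd 0.637 and 0.587, Ctsz 0.957 and 1.04).

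The 12 genes with the smallest ratios in both libraries included Adgre1 and Apoc1 and, beside them, Ebi3, Lilrb3, Tmem37, Ctla2a, Ltc4s, Apoc4, Gpr34, Cfd, Htr2b and C6. Ebi3, a subunit of interleukin-27, had ratios of 0.0656 and 0.129. Ltc4s, which makes leukotriene C4, had ratios of 0.188 and 0.166. Cfd, complement factor D, had ratios of 0.128 and 0.216, and Gpr34, a lysophospholipid receptor, of 0.202 and 0.0201.

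**Figure D4:**
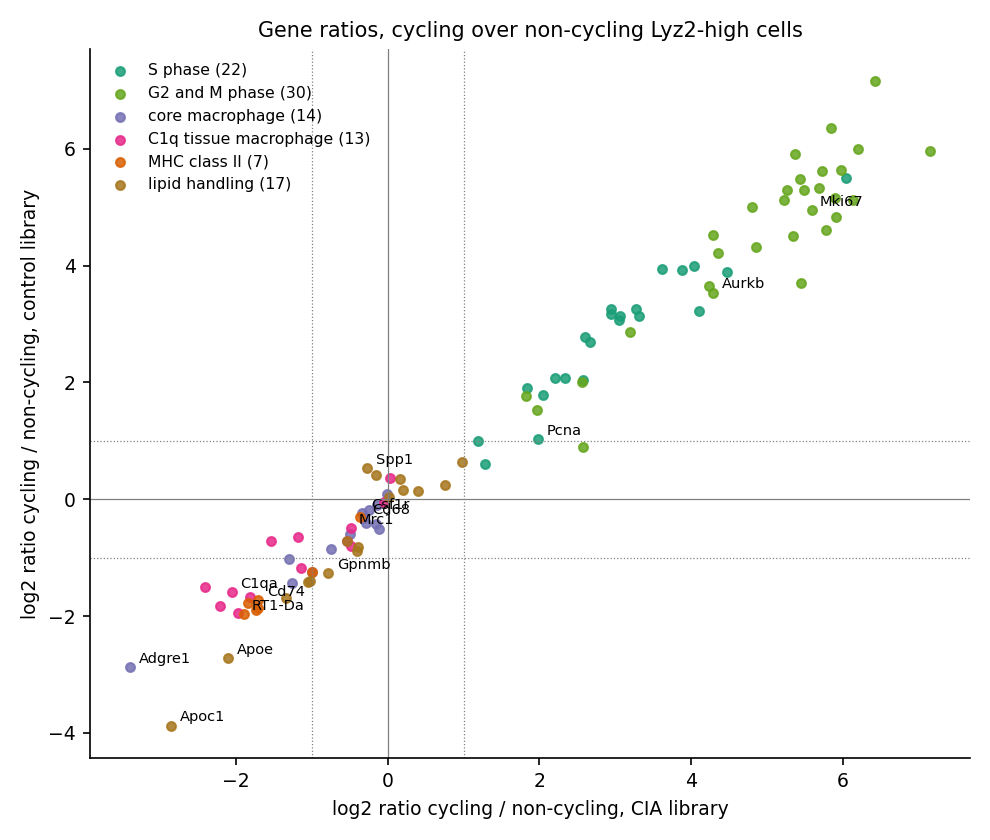
Log2 ratio of cycling to non-cycling Lyz2-high cells in the CIA library (x) and the control library (y), each point a gene of the S phase, G2 and M phase, core macrophage, C1q, class II or lipid list that was measured in both, with dotted lines at 2-fold. As plain ratios in CIA and control, Mki67 stands at 48.0 and 30.9, Csf1r at 0.795 and 0.846, and Apoe at 0.234 and 0.152.

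Genes of arriving monocytes and of progenitors were mixed. Of the inflammatory monocyte list 1 of 13 was lower in both libraries, Il1b, an inflammatory cytokine (0.433 and 0.352), beside 1.61% of all genes. Fcnb stood at 392 CPM in cycling and 213 CPM in non-cycling cells of the CIA library, and at 1068 and 371 CPM in the control library, where it passed the size rule. S100a4 and Vcan, which circulating monocytes carry, were not called (S100a4 1.04 and 1.19, Vcan 1.12 and 1.12). Of 10 progenitor regulators 0 passed in both libraries, and Kit, the stem cell factor receptor, stood at 1.24 CPM in cycling cells of the CIA library and at 0 in those of the control library. Of 9 osteoclast genes and 3 dendritic cell genes measured in both libraries, 0 passed in both.

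Of the granule precursor genes 1 of 7 measured was higher in the CIA library and 6 of 11 in the control library, and 1 was higher in both. Over all measured genes 7.44% were higher in the CIA library, 8.61% in the control library and 5.47% in both. The granule gene higher in both was Nkg7, a granule membrane protein also of T and NK cells. It stood at 17.7 against 0.808 CPM in the CIA library and 63.2 against 6.01 CPM in the control library. After thinning Nkg7 was detected in 3.42% of cycling and 0.389% of non-cycling cells of the CIA library, and in 13.6% and 1.83% of those of the control library. Rnase2, a granule ribonuclease examined after its values were seen, was detected in 2.74% and 0.243% in the CIA library and in 22.03% and 2.25% in the control library. Of 13 neutrophil genes 3 were higher in the CIA library and 7 in the control library, and 3 were higher and 2 lower in both. Defensin RNA sat in single cells: the 1 cell past a defensin gate held 95.5% of the defensin UMIs of cycling cells in the CIA library, and the 1 such cell of the control library held 83.7%. In cycling cells of the CIA library the richest cell held 96.8% of the Defa5 UMIs, 95.4% of those of RatNP-3b and 93.4% of those of Np4. The values of these defensins in that library thus rest largely on 1 cell. Without the cell richest in each gene, the calls of the defensins Defa5 and RatNP-3b were lost in the control library. S100a9, a calcium-binding protein of neutrophils, then went to 1.02 there, against 3.87 with it.

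Within classes, too, cycling cells had less class II RNA. In the ungated class 271 of 5594 genes (4.84%) were higher and 78 (1.39%) lower in both libraries. In the CIA library by itself 6.97% were higher and 1.85% lower, and in the control library 7.25% and 2.76%. Of the class II list 5 of 7 measured genes were lower in both. Cd74 stood at 2885 CPM in cycling and 7863 CPM in non-cycling ungated cells of the CIA library, and at 2945 and 9272 CPM in the control library. Apoe stood at 5395 and 18178 CPM in the CIA library, a ratio of 0.297, and had a ratio of 0.150 in the control library. C1qa, which the gate holds down, was not called (0.737 and 0.805).

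In the C1q class of the CIA library, with 24 cycling cells, 199 of 4918 genes (4.05%) were higher and 68 (1.38%) lower. There Cd74 stood at 8544 CPM in cycling and 17537 CPM in non-cycling cells and Apoe had a ratio of 0.373, while C1qa at 1320 and 1866 CPM and Csf1r (0.883) were not called. The gate itself holds C1q up in this class, whereas class II and Apoe were free to differ. The 8 lowest ratios in this class were those of Slfn5, A3galt2, G0s2, Mertk, Rab4a, Rab20, Neurl3 and Ltc4s. Mertk, the receptor with which macrophages take up dead cells, stood at 2.53 CPM in cycling and 27.5 CPM in non-cycling C1q cells. The 8 highest were Cdkn3, Hist1h1b, Spc24, Kif22, Hmgb2l1, Smc2, Dctpp1 and Hist1h1e, and Cdkn3, a phosphatase of Cdk1 and Cdk2, stood at 256 and 5.88 CPM. The C1q class of the control library held 14 cycling cells, under the minimum of 20 set for sums, and got no ratios.

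In the Fcnb class 95 of 1901 genes (5.0%) stood at least 2-fold higher and 140 (7.36%) lower among CIA cells, and 148 of 1791 (8.26%) were higher and 249 (13.9%) lower in the control library. Of the class II genes 6 of 7 were lower in each library, and of the immediate early genes, which switch on within minutes of a stimulus, 14 of 18. Of the core macrophage genes 5 of 12 were lower in the CIA library and 7 of 12 in the control library, and 0 were higher. Genes of the neutrophil list, which includes Fcnb, summed to 11322 CPM in cycling and 8531 CPM in non-cycling cells of the CIA library. In the control library they summed to 13320 and 4509 CPM. Il1b stood at 27.8 and 539 CPM in the CIA library and at 47.5 and 457 CPM in the control library. Apoe was not called in this class (0.587 and 0.853).

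Cycling cells of the CIA library were then compared with those of the control library. Of 5923 genes measured, 21 (0.355%) stood at least 2-fold above the control library and 173 (2.92%) at least 2-fold below it. In non-cycling cells 48 of 8869 (0.541%) stood above and 317 (3.57%) below. Of the genes lower in cycling cells 133 were also lower in non-cycling cells, which is 76.9% of the cycling and 42.0% of the non-cycling genes. Of those higher, 7 were shared, 33.3% and 14.6%. Both comparisons come from the same pair of libraries and so share whatever separates these. Of 27 S phase genes, 33 G2 and M phase genes, 7 class II genes, 12 core macrophage genes and 17 lipid genes measured in cycling cells, 0 passed in either direction. Cd74 stood at 3251 CPM in the CIA library and 3312 CPM in the control library.

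Of the immediate early genes 15 of 19 were lower in the CIA library in cycling and 13 of 19 in non-cycling cells, with median log2 ratios of -1.47 and -1.16 against 0.05 and 0.10 over all genes. The classes differed in this. In the ungated class the list summed to 4808 CPM (CIA) and 16583 CPM (control) in cycling cells. In its non-cycling cells the sums were 8535 and 21495 CPM. The Fcnb class showed no such difference, at 8301 and 8269 CPM in cycling and 24510 and 24143 CPM in non-cycling cells. Nfkbia, the inhibitor of NF-kB, stood at 736 CPM in cycling cells of the CIA library and 3360 CPM in those of the control library. Atf3, a stress-induced transcription factor, stood at 280.1 and 1228 CPM, Klf6 at 281 and 1273 CPM, and Fos at 573 and 1226 CPM. Maff, a small Maf protein outside the list, stood at 1.44 and 37.3 CPM. With 1 library each, CIA and anything else that differed between the libraries cannot be told apart.

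**Figure D5:**
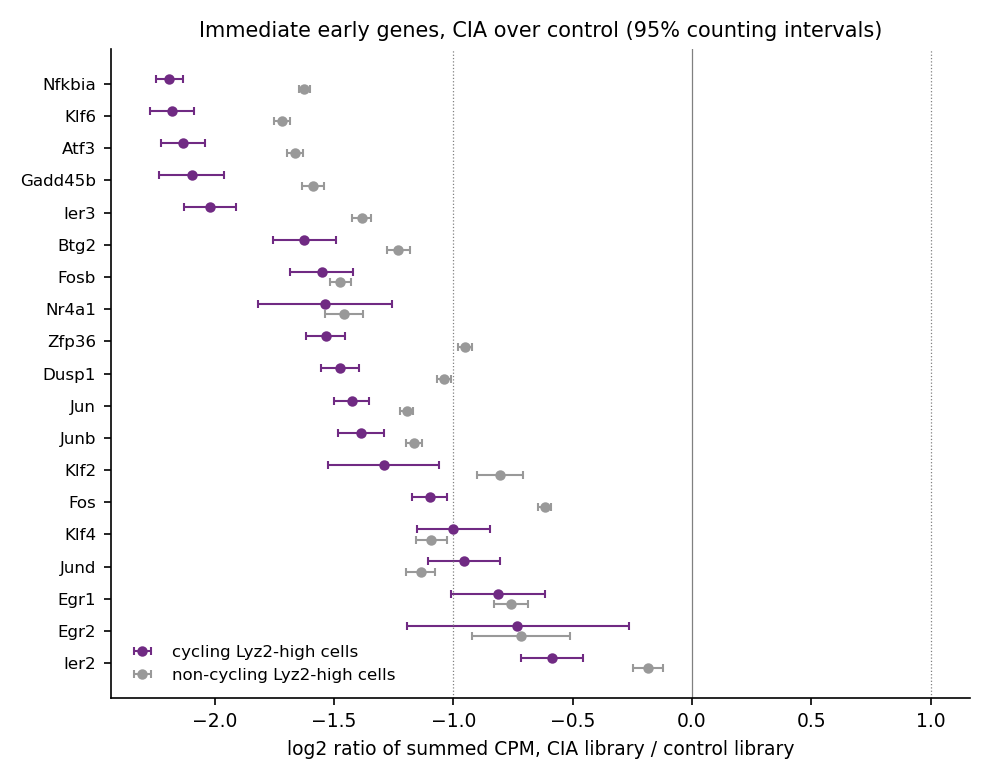
Ratio of CIA to control (log2 axis, exact 95% counting intervals) for the 19 immediate early genes in cycling and in non-cycling Lyz2-high cells. In cycling cells 15 of 19 genes are at least 2-fold lower in CIA, with Nfkbia at 0.219 and Fos at 0.467.

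Of 17 inflammatory cytokines and chemokines 10 were lower and 1 higher in cycling cells of the CIA library. Cxcl1, which attracts neutrophils, stood at 98.1 CPM in the CIA library and 926 CPM in the control library, a ratio of 0.106, with 0.296 in non-cycling cells. The monocyte attractants Ccl2 and Ccl7 had ratios of 0.492 and 0.418 in cycling cells and of 0.916 and 0.973 in non-cycling cells. Ccl6, a chemokine of rodent macrophages, was the higher one, at 250.2 against 111 CPM. The difference between cycling and non-cycling cells in these ratios was not tested.

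Of 11 granule genes measured 6 were lower in cycling cells of the CIA library, on the RNA of few cells. Ctsg, a serine protease, stood at 2.27 CPM in the CIA library and 135 CPM in the control library, Elane, neutrophil elastase, at 3.09 and 116 CPM, and Mpo, myeloperoxidase, at 4.53 and 94.2 CPM. In the control library 1 cycling cell held 53.2% of the Ctsg UMIs, 61.5% of those of Elane and 67.5% of those of Mpo. Without the richest cell of each library the ratios of CIA to control were 0.00972 for Ctsg, 0.0503 for Elane and 0.1201 for Mpo, against 0.0168, 0.0266 and 0.0482 with it. After thinning, cycling cells with a UMI made up 1.03% in the CIA library and 3.39% in the control library for Ctsg, 2.05% and 2.54% for Elane, and 2.05% and 5.08% for Mpo, with overlapping intervals for each. Fcnb stood at 392 and 1068 CPM, beside the smaller share of the Fcnb class among cycling cells of the CIA library. Col2a1, the collagen of cartilage matrix, stood at 5.36 and 122 CPM, and Hbb, beta globin, at 7.83 and 34.1 CPM. Of the chondrocyte list 2 of 2 measured genes were lower in cycling cells of the CIA library (median log2 ratio -3.31), and of the erythroid list 2 of 2 (-1.82). Their part in the other differences was not tested.

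The largest ratios of CIA to control belonged to Defa5 and RatNP-3b, whose calls, like that of the metalloreductase Steap1, were lost without the richest cell. After these came Lrp1, Pla2g2a, Prg4, Pdpn, Scd2, Inhba, Tlr8, Ahnak and Pla2g2d. Lrp1, an endocytic receptor that binds Apoe-bearing particles, stood at 524 CPM in the CIA library and 151 CPM in the control library, with a ratio of 3.47 in cycling and 2.28 in non-cycling cells. Fn1, fibronectin, stood at 5653 and 2674 CPM. Tlr8, a sensor of single-stranded RNA, stood at 28.9 and 11.8 CPM. Prg4, lubricin of the joint lining, stood at 1523 and 550 CPM, and the 5 lining genes together, Prg4 among them, at 1579 and 654 CPM. The part of lining RNA in the Prg4 value was not tested.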

How the data were processed

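The values are UMI counts per gene and cell barcode, made and filtered to barcodes by the authors before they deposited them. Per the labels' protocols a 3′ Chromium kit of version 2 was used, and the submitters' processing notes name build mRatBN7.2. No further step of the authors is recorded in the sources used here. Barcodes under 200 genes or above 20% mitochondrial UMIs were dropped, and Scrublet (scanpy 1.11.5) removed 159 CIA and 65 control cells as doublets. UMIs of cells were summed per group and scaled to CPM, and ratios got exact conditional intervals, shares Clopper-Pearson intervals, all at 95% and for counting error only. The size rule was tested on simulated counts. edgeR 4.0.16 gave the scaling by trimmed mean of M values only. Col1a1-high, Lyz2-low cells held at least 10000 CPM of Col1a1 and at most 1000 CPM of Lyz2. The cells, gates and gene lists were chosen with earlier results of these data known. Named genes were list members and, outside the cycle and growth lists, those past the size rule with the largest and smallest ratios (12 each way in both libraries and between libraries, 8 each way within the C1q class, where the rule asked for both libraries and only the CIA library had enough cells). Alternatives changed thresholds, gates, scaling, thinning, filters and the richest cell per gene. Some results are not reported here.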

Additional observations from a re-analysis of the deposited data

Results flagged for a closer look

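Ccl24, a chemokine that attracts eosinophils, passed the size rule in opposite directions, with a ratio of cycling to non-cycling cells of 0.291 in the CIA library and of 3.69 in the control library. It stood at 19.2 CPM in cycling and 65.98 CPM in non-cycling cells of the CIA library, and at 43.9 and 11.9 CPM in the control library. In the control library 1 cell held 51.8% of the Ccl24 UMIs of cycling cells, and without the richest cell of each group the ratios were 0.249 and 2.399. The difference between the libraries was not tested.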

How the results depend on the processing

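No paired analysis was possible because the labels give no replicate numbers and each group is 1 library, so no library could be left out either. Under the alternatives, the cycling share of Lyz2-high cells was 11.7% in the CIA library and 13.1% in the control library at a cycle sum of 3 UMIs, 7.29% and 8.16% at 10 UMIs, 8.44% and 8.70% at 500 CPM, and 6.86% and 6.51% with all gates read on thinned counts. With class gates at 0.5 times their CPM the C1q class was 32.0% of non-cycling cells in the CIA library and 32.9% in the control library, and at 2 times 22.5% and 22.9%. Genes higher in cycling cells of both libraries numbered 598 with a minimum of 20 UMIs, 107 with 500 UMIs and 153 after thinning, and those lower 65 with 500 UMIs and 197 with edgeR's scaling. Between libraries in cycling cells, genes higher in the CIA library numbered 39 with 20 UMIs, 11 with 500 UMIs, 80 by the mean of cells, 56 with doublet calls kept and 41 with Lyz2 from 10000 CPM. Those lower numbered 264, 69 and, after thinning, 79. The cause was not tested, except that a minimum changes the genes measured and thinning discards UMIs. Reversals touched S100a8 and S100a9. CIA to control in cycling cells, S100a8 was 1.30 and S100a9 1.84 with Lyz2 from 10000 CPM, and S100a9 was 1.68 with Lyz2 from 30000 CPM, where its ratio of cycling to non-cycling control cells was 0.595. For single named genes, 1586 recomputed values over 45 genes kept their side of the size rule, 26 passed it newly, 24 lost it and 4 reversed. Leaving out the richest cell was chosen after seeing the data. Depth limits genes near the minimum of 100 UMIs and the classes with few cycling cells.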
